A study of Homo sapiens with 4 samples.

Results

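The genes described here encode the ephrin, netrin and Slit axon guidance cues and their receptors. They were taken as the rows of the gene count table whose Ensembl identifier maps to 1 of 37 listed symbols: Eph receptors, ephrins, netrins with the DCC, neogenin and UNC5 receptors, and Slits with Robo receptors. All 37 had a single row among the 64252 of the table. The cells were SK-N-BE(2), an established human neuroblastoma line with amplified MYCN. Cells with a short hairpin RNA (shRNA) against IRF2BP2, labelled sh-IRF2BP2, gave 2 libraries, and cells with a scramble shRNA, labelled sh-Scb, gave the other 2. The labels give no time after shRNA delivery and no hairpin sequence, and they do not say whether the 2 libraries of a group came from separate cultures, so each p-value reflects library-to-library spread, perhaps technical, and nothing wider.

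Eph receptors are receptor tyrosine kinases that are bound by ephrins on neighbouring cells. Ephrin-A ligands are held in the membrane by a lipid anchor and ephrin-B ligands span it, and signals run into both the receptor cell and the ligand cell. Netrins attract axons through DCC and neogenin and repel them through the UNC5 receptors, and DCC and UNC5 are also known as dependence receptors, which can trigger cell death when no netrin is bound. Slits are large secreted proteins that repel axons and migrating cells, neural crest among them, through Robo receptors. In neuroblastoma, high EPHB6, EFNB2 and EFNB3 have been described as marks of favourable tumours.

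Total counts lay between 30847699 and 34684651 per library. IRF2BP2, the targeted transcriptional co-regulator, stood at 89.6 and 87.6 CPM (counts relative to the library total after TMM scaling) with its shRNA, against 243 and 238 CPM with scramble (log2 fold change -1.44, SE 0.04, edgeR adjusted p = 5.87e-10). Of 9 noradrenergic neuroblastoma markers none was at 0, and their summed level was 8730 to 8850 CPM with the IRF2BP2 shRNA and 8090 to 8480 CPM with scramble, most of it from MYCN. The Schwann cell precursor markers summed to 2.59 to 2.88 CPM with the IRF2BP2 shRNA and 1.99 CPM in each scramble library, with 2 of 7 at 0. The endothelial markers summed to 2.12 to 2.50 CPM with the IRF2BP2 shRNA and 2.74 to 2.80 CPM with scramble (1 of 6 at 0), and the macrophage markers to 4.41 to 4.88 CPM with the IRF2BP2 shRNA and 5.10 to 7.82 CPM with scramble (1 of 6 at 0). The 7 fibroblast markers, some of which neuroblastoma cells also express, summed to 283 CPM in each IRF2BP2 shRNA library and 333 to 348 CPM with scramble. Within that sum the markers moved both ways: COL1A1 rose 4.50-fold and COL3A1 2.81-fold, DCN fell 2.47-fold, PDGFRA 2.36-fold, LUM 2.04-fold and PDGFRB 1.28-fold, and COL1A2 had no count with the IRF2BP2 shRNA, against 8 and 10 counts with scramble. Mitochondrially encoded genes took 6.42% of counts in each IRF2BP2 shRNA library, against 7.27% and 7.10% in the scramble libraries. The part of these differences in the results below was not tested.

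With the IRF2BP2 shRNA, UNC5B and EPHA2 rose 2.48-fold and 2.55-fold, while UNC5A fell 6.04-fold, SLIT1 5.44-fold, NTN3 3.41-fold, ROBO2 3.35-fold, EFNB3 2.60-fold and SLIT3 2.04-fold. Of the 37 genes, 29 passed the filter on low counts, and of these 10 rose, 12 fell and 7 were not called (edgeR quasi-likelihood test, adjusted p under 0.05 over all 19093 genes tested). The background is high in this comparison: 42.0% of all genes tested were called, 20.6% as higher and 21.4% as lower. Changes over 2-fold were called for 11 of the 29 (4 higher and 7 lower), beside 9.70% of all genes (2.95% higher and 6.75% lower). The median log2 fold change was -0.27 over the 29 and -0.011 over all genes. The values of the groups did not overlap for 27 of the 29, beside 70.4% of all genes. The genes were chosen with earlier results of these data known, so these shares are no test of the set. EPHA4 passed the filter only through the IRF2BP2 shRNA libraries, and EPHA5 and NTN1 only through the scramble libraries. Of the 26 that passed in both groups, 9 rose and 12 fell. The calls of 13 genes held with each library left out in turn (4 higher and 9 lower), and those of 9 were lost without at least 1 library, as given below.

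In GENCODE release 29 (GRCh38) the plus strand carries UNC5A (ENSG00000113763) at chr5:176810477-176880898, UNC5B (ENSG00000107731) at chr10:71212570-71302864 and ROBO2 (ENSG00000185008) at chr3:75906695-77649964. The minus strand carries SLIT1 (ENSG00000187122) at chr10:96998038-97185920, SLIT3 (ENSG00000184347) at chr5:168661733-169301129 and EPHA2 (ENSG00000142627) at chr1:16124337-16156087. The table gives 1 count per gene and library, so isoforms cannot be told apart.

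**Figure D1:**
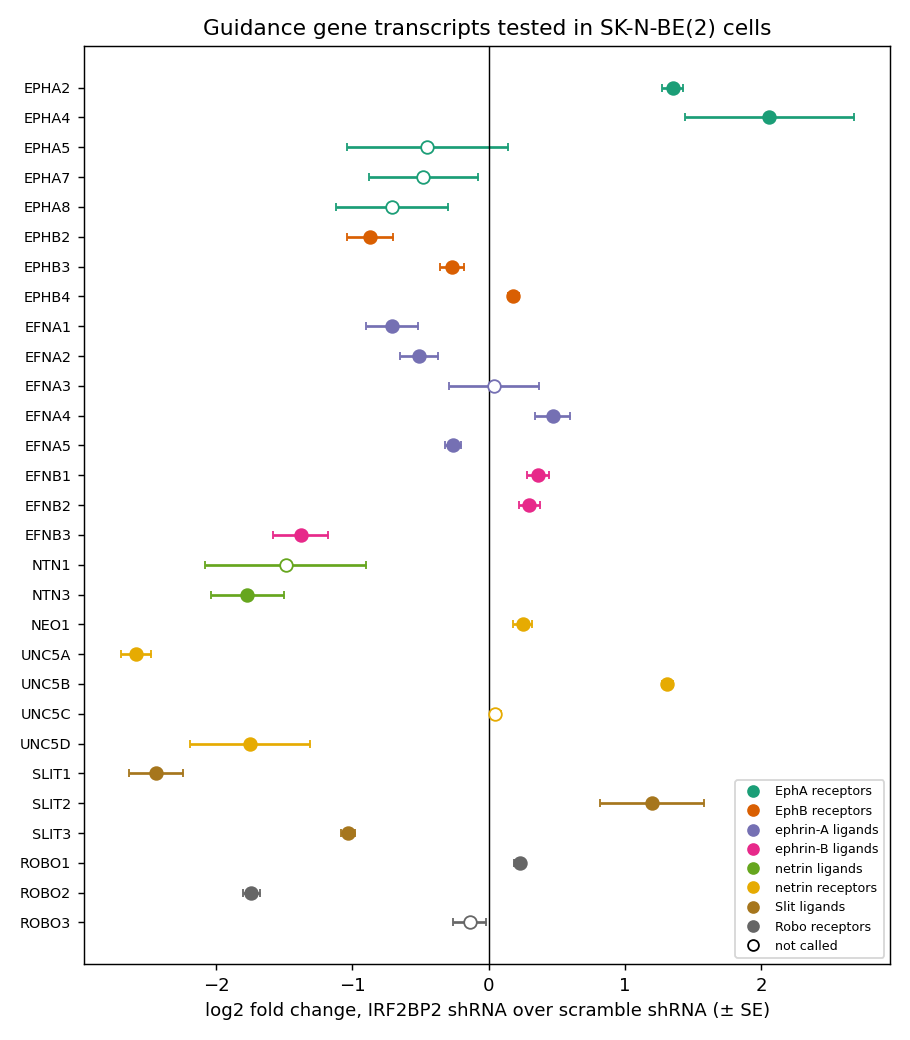
Log2 fold change of IRF2BP2 shRNA over scramble shRNA (x axis, bars are SE from the edgeR fit on 2 libraries per group) for the 29 guidance genes tested, coloured by class. Open circles are the 7 genes not called; UNC5A (-2.59) and SLIT1 (-2.44) lie farthest to the left, and EPHA4 (2.06), EPHA2 (1.35) and UNC5B (1.31) farthest to the right.

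The 250 bases before the RefSeq start (GRCh38.p14) of 4 genes are shown. UNC5A, SLIT1 and SLIT3 are among the 7 genes called lower over 2-fold, and EPHA2 is among the 4 called higher over 2-fold. The other genes of these sets are not shown. CG dinucleotides, the sites of DNA methylation, are in capitals. UNC5A lies on the plus strand (chr5:176810309-176810558), and SLIT1 (chr10:97185960-97186209), SLIT3 (chr5:169301140-169301389) and EPHA2 (chr1:16156070-16156319) on the minus strand.
UNC5A: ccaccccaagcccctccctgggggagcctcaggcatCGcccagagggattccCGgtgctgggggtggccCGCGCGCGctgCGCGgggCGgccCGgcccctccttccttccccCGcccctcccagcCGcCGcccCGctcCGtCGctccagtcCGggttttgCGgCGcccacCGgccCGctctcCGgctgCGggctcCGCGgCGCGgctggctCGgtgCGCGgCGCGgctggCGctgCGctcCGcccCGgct
SLIT1: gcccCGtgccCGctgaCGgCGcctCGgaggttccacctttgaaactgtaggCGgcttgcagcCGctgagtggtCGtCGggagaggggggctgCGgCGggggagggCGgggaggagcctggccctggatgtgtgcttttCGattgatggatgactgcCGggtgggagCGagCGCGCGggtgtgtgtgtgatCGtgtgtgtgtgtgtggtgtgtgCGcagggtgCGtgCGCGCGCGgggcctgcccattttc
SLIT3: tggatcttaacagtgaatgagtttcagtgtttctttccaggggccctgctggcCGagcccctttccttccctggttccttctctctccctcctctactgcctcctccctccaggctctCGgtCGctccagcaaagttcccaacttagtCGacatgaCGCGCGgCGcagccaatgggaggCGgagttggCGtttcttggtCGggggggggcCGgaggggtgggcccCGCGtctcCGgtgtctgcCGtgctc
EPHA2: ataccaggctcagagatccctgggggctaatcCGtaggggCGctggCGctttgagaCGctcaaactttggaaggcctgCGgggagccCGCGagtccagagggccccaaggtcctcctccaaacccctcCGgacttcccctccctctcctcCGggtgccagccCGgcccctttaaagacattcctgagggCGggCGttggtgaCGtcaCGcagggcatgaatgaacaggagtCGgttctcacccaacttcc
UNC5A has 36 CG dinucleotides in this window, SLIT1 25, SLIT3 16 and EPHA2 15. The CG counts of genes that fell and genes that rose were not compared as sets. The RefSeq table held a window for 31 of the 37 genes, some with several starts. Over these windows the median GC content was 66.6% and the median CG count 20, beside 58.0% and 11 over all 35116 windows in the table. Each window was searched on both strands for 3 motifs that do not overlap one another. Matches are given by gene for the 31, some with several windows. For the background they are given as a share of single windows, so the units differ. CACGTG, the E-box that MYC proteins bind, was found before EPHA8 alone, beside 6.34% of all windows. TGACTCA, the AP-1 motif, was found before none of the 31, beside 4.20% of all windows. GAAA, then any 2 bases, then GAAA, a motif of interferon regulatory factors, was found before EPHA4 and NEO1, beside 3.02% of all windows. A match is a description of letters and not of a bound site.

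Among the Slits, the 2 genes with the higher scramble levels fell. SLIT3 stood at 71.1 and 72.2 CPM with the IRF2BP2 shRNA, against 152 and 140 CPM with scramble. The groups are far apart, and the log2 fold change was -1.03 (SE 0.05, adjusted p = 2.32e-08). SLIT1 stood at 1.88 and 1.47 CPM with the IRF2BP2 shRNA, against 9.63 and 8.60 CPM with scramble (log2 fold change -2.44, SE 0.20, adjusted p = 2.63e-06). SLIT1 shares 216 exon bases with a readthrough transcript of ARHGAP19 and SLIT1, which had a mean count of 2.2. SLIT2 moved the other way from a low level. It had 1.25 and 1.28 CPM with the IRF2BP2 shRNA, against 0.576 and 0.521 CPM with scramble, a 2.30-fold rise (log2 fold change 1.20, SE 0.38, adjusted p = 0.0252). The SLIT2 call was lost without any 1 of the 4 libraries, with an adjusted p of 0.0784 and 0.0940 without IRF2BP2 shRNA replicates 1 and 2 and of 0.0542 and 0.0851 without scramble replicates 1 and 2, and with DESeq2 (0.141).

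Levels per kilobase of merged exon allow only a rough comparison between genes, since the length of the expressed isoforms is not known. On that scale the summed Slit level was 5.32 and 5.36 CPM per kb with the IRF2BP2 shRNA, against 11.8 and 10.8 CPM per kb with scramble. SLIT3 made up 93.7% and 94.5% of that sum in the IRF2BP2 shRNA libraries and 90.5% and 90.8% in the scramble libraries. SLIT3 thus made up nearly all of the summed Slit level in every library.

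SLIT2 and SLIT3 each carry a copy of the miR-218 hairpin within an intron, on the host's own strand. The miR-218-5p sequence is the same at both loci (GRCh38.p14, chr4:20528299-20528319 in SLIT2 and chr5:168768211-168768231 in SLIT3), while the 3p arms tell the copies apart. The hosts were called in opposite directions, but the SLIT2 call came from a low level and was lost without any 1 of the 4 libraries. The sequences are shown with the seed in capitals.
hsa-miR-218-5p: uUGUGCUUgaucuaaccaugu
hsa-miR-218-1-3p (SLIT2): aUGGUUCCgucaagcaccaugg
hsa-miR-218-2-3p (SLIT3): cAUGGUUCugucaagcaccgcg
The miRNAs were not measured here, and the counts describe the host transcripts alone.

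Of the Robo receptors, ROBO2 fell and ROBO1 rose slightly. ROBO2 stood at 23.1 and 24.1 CPM with the IRF2BP2 shRNA, against 78.2 and 80.0 CPM with scramble (log2 fold change -1.74, SE 0.06, adjusted p = 4.57e-09). ROBO1, the most abundant Robo per length, stood at 134 and 142 CPM with the IRF2BP2 shRNA, against 118 and 117 CPM with scramble (log2 fold change 0.23, SE 0.04, adjusted p = 7.39e-04). Neither gene's groups overlap (nor do those of 70.4% of all genes tested), but the change of ROBO1 is only 1.18-fold. ROBO3, known in mouse for letting commissural axons cross the midline, had 11.6 and 11.3 CPM with the IRF2BP2 shRNA and 12.2 and 12.9 CPM with scramble, and was not called (log2 fold change -0.14, SE 0.12, adjusted p = 0.401).

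The make-up of the Robo class changed with ROBO2. ROBO1 held 80.2% and 81.1% of the summed per-length Robo level in the IRF2BP2 shRNA libraries, against 62.8% and 61.8% in the scramble libraries. ROBO2 held 9.05% and 8.95% with the IRF2BP2 shRNA, against 27.2% and 27.6% with scramble. The ratio of ROBO1 to ROBO2 per length was 8.87 and 9.06 with the IRF2BP2 shRNA and 2.31 and 2.24 with scramble. The summed level itself was 15.3 and 16.1 CPM per kb with the IRF2BP2 shRNA and 17.3 and 17.4 CPM per kb with scramble.

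Netrin transcripts were scarce in both groups. NTN3, a netrin of sensory ganglia in mouse, was the most abundant per length and fell 3.41-fold, with 1.13 and 1.75 CPM in the IRF2BP2 shRNA libraries, against 4.52 and 5.31 CPM in the scramble libraries (log2 fold change -1.77, SE 0.27, adjusted p = 2.60e-04). NTN1, the classical netrin of the floor plate, had 10 and 5 counts with the IRF2BP2 shRNA, against 17 and 26 counts with scramble, and was not called (log2 fold change -1.49, SE 0.59, adjusted p = 0.0623). NTN4 had 0 and 2 counts with the IRF2BP2 shRNA and 8 and 0 counts with scramble, and did not pass the filter.

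Netrin receptors were the most abundant class per length, and the 4 UNC5 genes did not move together. UNC5B stood at 441 and 450 CPM with the IRF2BP2 shRNA, against 176 and 184 CPM with scramble (log2 fold change 1.31, SE 0.04, adjusted p = 1.43e-09). UNC5A stood at 5.41 and 6.50 CPM with the IRF2BP2 shRNA, against 35.3 and 36.6 CPM with scramble (log2 fold change -2.59, SE 0.11, adjusted p = 1.15e-08). Both genes encode repulsive netrin receptors with a death domain, and their groups are wide apart in opposite directions. UNC5C had 289 and 287 CPM with the IRF2BP2 shRNA and 284 and 273 CPM with scramble, and was not called (log2 fold change 0.05, SE 0.04, adjusted p = 0.401); under upper quartile scaling its estimate was 0.00 with the sign turned. UNC5C shares 78 exon bases with AC106881.1 on the opposite strand (mean count 461.2, beside 9167 for UNC5C), and UNC5A shares 30 with HK3 (mean count 7.8, beside 683).

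With the replicate number added to the fit, the UNC5D call was lost (edgeR adjusted p = 0.0787). UNC5D fell in the main fit, with a wide spread between libraries. It had 1.47 and 3.06 CPM with the IRF2BP2 shRNA, against 9.60 and 5.64 CPM with scramble (log2 fold change -1.75, SE 0.44, adjusted p = 0.0283). The groups do not overlap, but the size depended on single libraries: the log2 fold change was -1.31 without IRF2BP2 shRNA replicate 1, -2.37 without IRF2BP2 shRNA replicate 2, -1.30 without scramble replicate 1 and -2.08 without scramble replicate 2, with an adjusted p of at most 0.0270 in these 4 fits. NEO1, which encodes neogenin, the relative of DCC that also binds repulsive guidance molecules, had 48.5 and 49.8 CPM with the IRF2BP2 shRNA, against 39.8 and 43.1 CPM with scramble (log2 fold change 0.25, SE 0.07, adjusted p = 0.0139). The NEO1 call was lost without IRF2BP2 shRNA replicate 2 (adjusted p = 0.0590) and without scramble replicate 1 (adjusted p = 0.0534). DCC itself had 2 counts in each IRF2BP2 shRNA library and 4 and 0 counts in the scramble libraries, and did not pass the filter.

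UNC5B took a larger part of the netrin receptor level with the IRF2BP2 shRNA. It held 65.3% and 65.4% of the summed per-length level of the 6 receptors in the IRF2BP2 shRNA libraries, against 38.8% and 40.3% in the scramble libraries. UNC5A held 1.26% and 1.48% with the IRF2BP2 shRNA, against 12.2% and 12.6% with scramble. The ratio of UNC5B to UNC5A per length was 52.0 and 44.1 with the IRF2BP2 shRNA, against 3.17 and 3.19 with scramble. UNC5B and UNC5C were near equal with scramble, at a ratio of 0.966 and 1.05, and stood at 2.39 and 2.45 with the IRF2BP2 shRNA. The summed level of the class was 98.9 and 101 CPM per kb with the IRF2BP2 shRNA, against 66.2 and 66.7 CPM per kb with scramble, while the summed netrin ligands stood at 0.616 and 0.921 CPM per kb with the IRF2BP2 shRNA, against 2.41 and 2.81 CPM per kb with scramble.

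**Figure D2:**
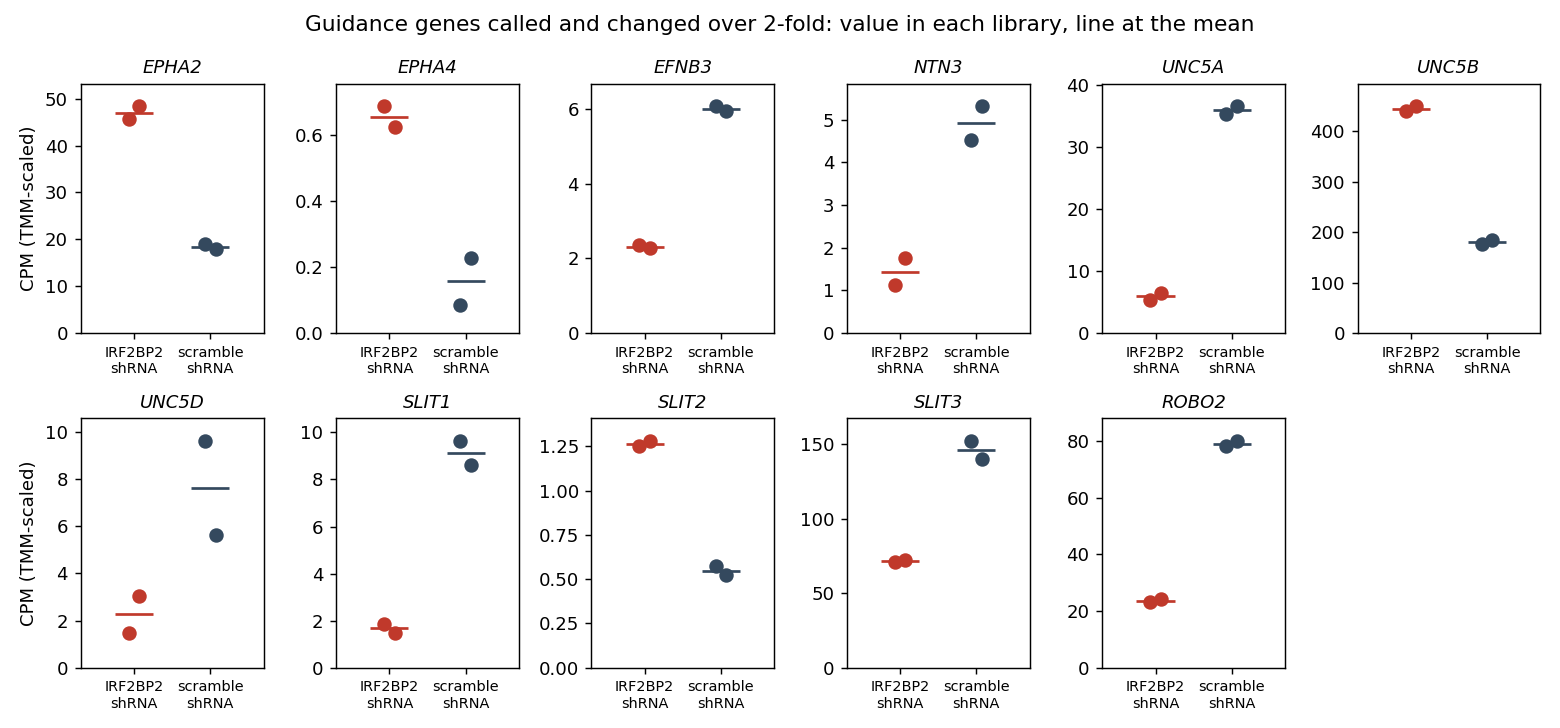
TMM-scaled CPM (y axis from 0) in each library for the 11 guidance genes called and changed over 2-fold, with IRF2BP2 shRNA on the left and scramble shRNA on the right of each panel; points are libraries and lines are means of 2. The libraries of UNC5D lie apart in both groups (1.47 and 3.06 CPM with IRF2BP2 shRNA, 9.60 and 5.64 CPM with scramble), and EPHA4 and SLIT2 lie under 1.5 CPM in every library.

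Of the EphA receptors, EPHA2 carried nearly the whole level and rose. EPHA2, an Eph receptor widely studied in epithelial and tumour cells, stood at 45.7 and 48.4 CPM with the IRF2BP2 shRNA, against 19.0 and 17.9 CPM with scramble (log2 fold change 1.35, SE 0.08, adjusted p = 1.60e-07). It made up 96.5% and 96.0% of the summed per-length EphA level in the IRF2BP2 shRNA libraries, against 90.3% and 89.4% in the scramble libraries. EPHA4, which binds both ephrin classes, was called higher from few reads, with 22 and 20 counts with the IRF2BP2 shRNA, against 3 and 7 counts with scramble (log2 fold change 2.06, SE 0.62, adjusted p = 0.0194). EPHA4 passed the filter through the group where it was high, so a difference was built into its being tested. Its call was lost without IRF2BP2 shRNA replicate 1 (adjusted p = 0.114), without IRF2BP2 shRNA replicate 2 (0.0834), without scramble replicate 1 (0.149) and with DESeq2 (0.103), and its log2 fold change was 2.87 without scramble replicate 2.

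The other EphA genes were near the detection limit. EPHA7 had 22 and 32 counts with the IRF2BP2 shRNA and 50 and 28 with scramble (adjusted p = 0.367), EPHA8 16 and 26 with the IRF2BP2 shRNA and 33 and 37 with scramble (adjusted p = 0.199), and EPHA5 8 and 10 with the IRF2BP2 shRNA and 11 and 14 with scramble (adjusted p = 0.589), and none of them was called. EPHA1, EPHA6 and EPHA10, the last of which encodes a receptor without kinase activity, did not pass the filter and had between 0 and 14 counts in any library. EPHA3 had no count in any library, which allows up to 0.0973 CPM in the shallowest of them (3 counts, for counting error only).

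The EphB receptors were carried by EPHB4. EPHB4, the receptor of EFNB2 in blood vessels, had 146 and 155 CPM with the IRF2BP2 shRNA, against 128 and 137 CPM with scramble, a 1.14-fold rise (log2 fold change 0.18, SE 0.04, adjusted p = 0.00662). That call was lost without IRF2BP2 shRNA replicate 2 (adjusted p = 0.0745), and EPHB4 shares 69 exon bases with SLC12A9 on the opposite strand (mean count 1159.5, beside 4563.5 for EPHB4). EPHB2, which guides commissural and retinal axons in mouse, fell, with 5.35 and 5.87 CPM with the IRF2BP2 shRNA, against 8.96 and 11.5 CPM with scramble (log2 fold change -0.87, SE 0.17, adjusted p = 0.00167). EPHB3 had 16.1 and 17.2 CPM with the IRF2BP2 shRNA, against 20.0 and 20.2 CPM with scramble (log2 fold change -0.27, SE 0.09, adjusted p = 0.0388).

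The EPHB3 call held in 6 of 12 alternative fits and was lost in the others. Its adjusted p was 0.239 and 0.0861 without IRF2BP2 shRNA replicates 1 and 2, 0.0928 and 0.107 without scramble replicates 1 and 2, 0.159 with DESeq2 and 0.0795 without the filter. EPHB1 had between 5 and 10 counts in any library, and EPHB6, which encodes a receptor without kinase activity, had 12 and 3 counts with the IRF2BP2 shRNA and 7 and 3 counts with scramble. Neither passed the filter. EPHB4 held 84.8% and 84.7% of the summed per-length EphB level in the IRF2BP2 shRNA libraries and 79.3% and 79.6% in the scramble libraries, and that sum was 26.8 and 28.4 CPM per kb with the IRF2BP2 shRNA and 25.1 and 26.7 CPM per kb with scramble. The summed EphB levels of the groups did not overlap, by a narrow gap.

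Ephrin-B ligands divided as well. EFNB3, a ligand of the midline of the nervous system in mouse, fell, with 2.35 and 2.28 CPM with the IRF2BP2 shRNA, against 6.08 and 5.96 CPM with scramble (log2 fold change -1.38, SE 0.20, adjusted p = 1.97e-04). EFNB1, the X-linked craniofrontonasal syndrome gene, rose, with 30.6 and 30.2 CPM with the IRF2BP2 shRNA, against 23.5 and 23.9 CPM with scramble (log2 fold change 0.36, SE 0.08, adjusted p = 0.00314). EFNB2, the arterial ephrin, was also higher, with 25.7 and 27.4 CPM with the IRF2BP2 shRNA, against 22.0 and 21.1 CPM with scramble (log2 fold change 0.30, SE 0.08, adjusted p = 0.0130). The groups do not overlap for any of the 3, as for 70.4% of all genes tested. The EFNB2 call was lost without IRF2BP2 shRNA replicate 2 and without scramble replicate 2, and its log2 fold change was 0.26 to 0.35 with each library left out. EFNB2 shares 26.16% of its exon bases with AL138689.2 on the opposite strand, for which the deposited counts hold no row. Reads in those bases are thus uncertain. The ratio of EFNB1 to EFNB3 per length was 12.7 and 12.9 with the IRF2BP2 shRNA, against 3.76 and 3.90 with scramble.

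Among ephrin-A ligands 1 rose, 3 fell and 1 was not called, all by less than 2-fold. EFNA5, the ephrin of topographic retinal maps in mouse, had 43.1 and 43.0 CPM with the IRF2BP2 shRNA, against 51.6 and 51.3 CPM with scramble (log2 fold change -0.26, SE 0.06, adjusted p = 0.00642). EFNA1 had 4.16 and 3.44 CPM with the IRF2BP2 shRNA, against 6.20 and 6.25 CPM with scramble (log2 fold change -0.71, SE 0.19, adjusted p = 0.0104). EFNA1, the best known ligand of EPHA2, was thus lower while that receptor was higher. EFNA2 had 7.13 and 7.78 CPM with the IRF2BP2 shRNA, against 10.4 and 10.9 CPM with scramble (log2 fold change -0.51, SE 0.14, adjusted p = 0.0121). EFNA4 had 12.6 and 11.9 CPM with the IRF2BP2 shRNA, against 9.34 and 8.40 CPM with scramble (log2 fold change 0.47, SE 0.13, adjusted p = 0.0141).

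The EFNA1 call was lost without IRF2BP2 shRNA replicate 2 (adjusted p = 0.0865). The EFNA2 call was lost without IRF2BP2 shRNA replicate 1 (0.0756) and without scramble replicate 2 (0.0527), and the EFNA4 call without the same libraries (0.0775 and 0.0628), as adjusted p. EFNA3 had 2.32 and 1.34 CPM with the IRF2BP2 shRNA and 1.76 and 1.79 CPM with scramble and was not called (log2 fold change 0.04, SE 0.33, adjusted p = 0.932). EFNA3 and EFNA4 are neighbours on chromosome 1 and share 853 and 189 exon bases with AL691442.1 on the same strand (mean count 0.5), so reads in those bases are uncertain. The EFNA4 to EFNA2 ratio per length was 1.32 and 1.15 with the IRF2BP2 shRNA, against 0.676 and 0.577 with scramble, and the summed ephrin-A level was 27.9 and 27.3 CPM per kb with the IRF2BP2 shRNA, against 30.7 and 30.6 CPM per kb with scramble.

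**Figure D3:**
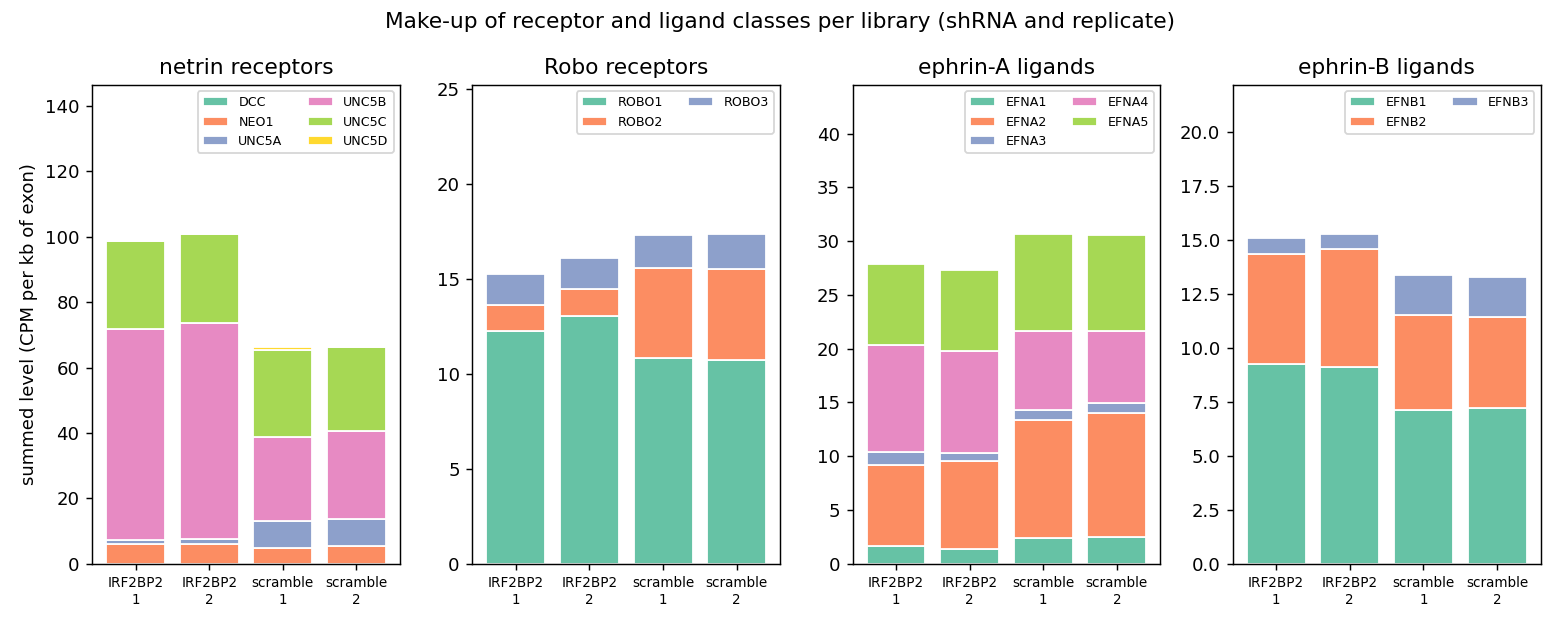
Summed level in CPM per kb of exon (y axis from 0) of 4 classes in each library, IRF2BP2 shRNA replicates on the left and scramble replicates on the right, with each gene as a segment. The UNC5B segment is 65.3% and 65.4% of the netrin receptor bar with the IRF2BP2 shRNA, against 38.8% and 40.3% with scramble, and the ROBO2 segment is 9.05% and 8.95% of the Robo bar with the IRF2BP2 shRNA, against 27.2% and 27.6% with scramble.

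In the order of levels per length, UNC5B, UNC5C and EPHB4 held the first 3 places in both groups. They stood at 65.2, 26.9 and 23.4 CPM per kb on average with the IRF2BP2 shRNA, and at 26.3, 26.1 and 20.6 CPM per kb with scramble. UNC5B and UNC5C did not differ beyond their spread with scramble, where their libraries overlap. EPHA2 held place 5 with the IRF2BP2 shRNA and place 13 with scramble, while UNC5A held place 17 with the IRF2BP2 shRNA and place 8 with scramble. SLIT3 held place 12 with the IRF2BP2 shRNA and place 6 with scramble, and ROBO2 place 16 with the IRF2BP2 shRNA and place 12 with scramble.

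**Figure D4:**
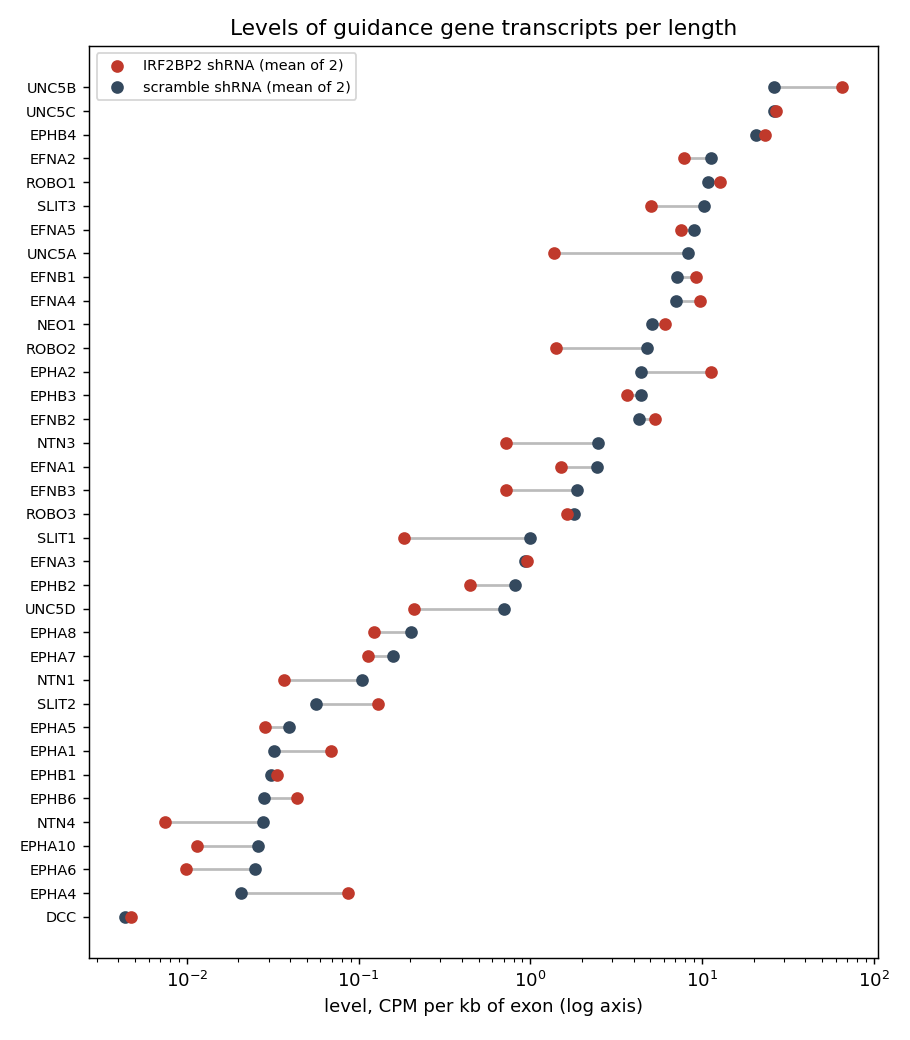
Mean level in CPM per kb of exon (x axis, log scale) of 36 guidance genes with IRF2BP2 shRNA and with scramble shRNA, 2 libraries each, ordered by the scramble level; EPHA3, with no count, is left out. UNC5B is highest in both groups (65.2 CPM per kb with IRF2BP2 shRNA, 26.3 with scramble), and among the 20 genes at 1 CPM per kb or more with scramble the longest lines belong to UNC5A and SLIT1.

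Genes that act with or below these receptors, together with other cues and co-receptors, moved both ways. Of 94 genes in 5 lists, 89 were tested, with 22 higher, 35 lower and 32 not called, and a median log2 fold change of -0.06. That is 64.0% called, beside the 42.0% of all genes (20.6% higher and 21.4% lower, with a median log2 fold change of -0.011). Of 26 tested genes acting with Ephs and ephrins, 7 rose and 8 fell (median log2 fold change 0.06). TIAM1, a RAC exchange factor, fell by 2.02, FYN, a SRC family kinase, by 0.62, CHN1, a RAC GTPase activator, by 0.43 and SIPA1L1, a RAP regulator, by 0.60 on the log2 scale. SIPA1L1 shares 19.09% of its exon bases with AC004974.1 on the opposite strand, for which the deposited counts hold no row. GRIP1, a PDZ scaffold that binds ephrin-B tails, fell by 3.38, with 0.719 ± 0.353 CPM with the IRF2BP2 shRNA and 7.53 ± 1.60 CPM with scramble (SD, n = 2 each). The log2 fold change of GRIP1 was -3.99 without IRF2BP2 shRNA replicate 2, and the gene shares 215 exon bases with HELB, which runs the opposite way and had a mean count of 485, beside 133.5 for GRIP1. INPPL1, which encodes the SHIP2 phosphatase that binds EPHA2, rose by 0.37. For these 6 genes the adjusted p lay at or under 2.06e-05.

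Of 19 genes acting with DCC and UNC5, 5 rose and 7 fell (median log2 fold change 0.03). The shares over all genes tested were 20.6% higher and 21.4% lower. TRIO, an exchange factor of netrin signalling, rose, with 710 ± 14.8 CPM with the IRF2BP2 shRNA and 390 ± 9.79 CPM with scramble (SD, n = 2 each; log2 fold change 0.86, adjusted p = 1.88e-08). TRIM67, a ligase that binds DCC, rose by 0.48, and its relative TRIM9 by 0.79. MYO10, a myosin of filopodia, fell by 0.95, EVL, an actin regulator, by 0.63, DAPK1, a death kinase that acts below UNC5 receptors, by 0.44 and TUBB3, the neuronal tubulin, by 0.35 on the log2 scale. TUBB3 shares 35.76% of its exon bases with AC092143.1 on the same strand (mean count 72.0). WASL (0.17) and PRKCA (0.11) were also called higher; WASL lost its call without IRF2BP2 shRNA replicate 1 (adjusted p = 0.119) and with upper quartile scaling (0.0543). PRKCA lost its call without IRF2BP2 shRNA replicate 1 (0.0966) or 2 (0.196) or scramble replicate 2 (0.0995), with upper quartile scaling (0.207), with a mean of at least 10 CPM (0.100) and with DESeq2 (0.0577).

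Of 20 genes acting with Slit and Robo, 4 rose and 8 fell (median log2 fold change -0.12), beside 20.6% higher and 21.4% lower over all genes. SRGAP3, a GTPase activator that binds Robo, fell by 1.43, with 17.4 ± 1.00 CPM with the IRF2BP2 shRNA and 46.8 ± 2.85 CPM with scramble (SD, n = 2 each; adjusted p = 1.62e-07). SRGAP3 shares 212 exon bases with THUMPD3, which runs the opposite way and had a mean count of 1953.2, beside 1045.8 for SRGAP3. SDC1, a heparan sulphate proteoglycan, fell by 0.46 and SOS1, a RAS and RAC exchange factor, by 0.30. The rises were MYO9B (0.28), GPC1 (0.42), the actin regulator CAP1 (0.26) and CAP2 (1.12). CAP1 shares 31.17% of its exon bases with PPT1 on the opposite strand (mean count 4321.8, beside 5590 for CAP1). Reads in those bases are thus uncertain.

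Other cues and co-receptors were mostly lower: of 11 tested, 1 rose and 8 fell, with a median log2 fold change of -0.67. Over all genes tested, 20.6% were called higher and 21.4% lower. Of the 10 cues and co-receptors that passed the filter in both groups, 1 rose and 7 fell. FLRT1 fell by 1.75 and FLRT3, which binds Robo and UNC5 receptors, by 0.55. DSCAML1, an adhesion molecule related to the netrin receptor DSCAM, fell by 3.19 on the log2 scale (log2 fold change -4.08 without IRF2BP2 shRNA replicate 2). DSCAML1, 1 of the 8, passed the filter only through the scramble libraries, where it was high, so a difference was built into its being tested. RTN4R, the Nogo receptor, fell by 0.90, NTNG2, a membrane netrin that does not bind DCC, by 0.79 and RGMB, a neogenin ligand, by 0.47 on the log2 scale (40.2% of its exon bases are shared with AC008522.1, an antisense gene of mean count 14.8), with an adjusted p of at most 0.00261 for these 6. ADORA2B, an adenosine receptor reported to bind DCC, was the rise (0.84, adjusted p = 0.00369). TRIM9, WASL, PRKCA, CAP2 and ADORA2B were named after their values were seen.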

How the data were processed

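Per the labels' protocols, TRIzol served for RNA extraction and the TruSeq RNA kit, which does not mark strand, for library preparation. Reads were aligned with HISAT2 2.2.0 to hg38, per the submitters' processing notes, with neither counter nor annotation given in the sources used here. Values deposited by the authors are raw counts per gene, 1 column per library. Columns named NC, not spelled out, were taken as the scramble libraries, since the others carry the name IRF2BP2, with the replicate number of the titles.

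The test was that of edgeR 4.0.16, run in R 4.3.3 (filterByExpr, TMM factors 0.996 to 1.00, quasi-likelihood F-test, robust, two-sided) on all 19093 genes that passed, with Benjamini-Hochberg adjustment and a threshold of 0.05; limma 3.58.1 and DESeq2 1.42.0 served as alternatives. Each SE was taken as |log2 fold change| over the root of F. CPM are TMM-scaled. Levels per kb use merged exons of GENCODE release 29 (GRCh38), so ranks, class shares and ratios between genes depend on that annotation. Replicates differed by more than sampling noise (chi-square per degree of freedom 5.26 in the IRF2BP2 shRNA pair and 7.01 in the scramble pair). The fit was tested on simulated data. Members and lists were chosen with earlier results of these data known. All 37 members are named, with up to 6 called genes of smallest p per pathway list; of the 5 lists, 1 is not reported here.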

Additional observations from a re-analysis of the deposited data

How the results depend on the processing

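Each result was recomputed under 12 alternatives: 2 scalings, 2 filters, DESeq2, limma voom, no robust estimation, a replicate block and each library left out. Of 333 results for single guidance genes, 303 kept their direction and side of the threshold, 26 lost the call, 0 gained one and 4 reversed; 12 of the 22 called genes kept their call in every alternative that tested them. The reversals were in genes not called: EFNA3 (0.00 with upper quartile scaling, -0.01 with limma voom and -0.40 to 0.39 with 1 library left out, negative without IRF2BP2 shRNA replicate 1) and UNC5C (0.00 with upper quartile scaling). The number of guidance genes called higher was 5 to 7, in place of 10, with 1 library left out, and 5 without IRF2BP2 shRNA replicate 2; the number called lower was 10 to 11 in place of 12. With a mean of at least 10 CPM only 15 guidance genes were tested, and 5 were lower, in place of 12.

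The replicate numbers pair the samples only by number. The differences between replicates 1 and 2 correlated at 0.311 between the groups, across 10387 genes, which are not independent. With the replicate block, 10 guidance genes were higher and 11 lower, and UNC5D lost its call (-1.75, adjusted p = 0.0787); over all genes 3950 were higher and 3950 lower, in place of 3930 and 4086. Upper quartile scaling gave 3315 higher and 4615 lower. Depth limits the 8 untested genes, all under 0.5 CPM, and 2 libraries per group limit small changes.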
